A study of Caenorhabditis elegans with 146 samples.

Results

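The diakinesis segment of the C. elegans gonad (S4) was compared with the diplotene loop just distal to it (S3). The libraries were taken by their stage label and by the mark for use in the deposited quality table, which gave 11 S4 libraries (9 of batch A and 2 of batch B) and 17 S3 libraries (15 of batch A and 2 of batch B), 28 of the 146 libraries in all. Every library came from 1 gonad segment of 1 well-fed gravid hermaphrodite of strain AZ212, which carries pie-1::H2B::GFP, a histone fusion driven by a germline promoter. S4 was the diakinesis zone before the -3 oocyte and S3 was the loop with diplotene germ cells. Animal age was not given in the sources used here. Segments were cut by hand, and the sheath cells around the gonad were harvested with them, so each library held germline and sheath RNA together. The 28 libraries came from 24 worms, 4 of which (worms 2, 28, 29 and 32) gave both segments. In such bulk samples, fewer cells of a type and less RNA per cell cannot be told apart.

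Germ cells move from the distal tip of the gonad through the pachytene zone and around the loop, where they pass from pachytene into diplotene and many die by apoptosis. The survivors become single oocytes that grow, load yolk and maternal RNA and hold their condensed chromosomes in diakinesis until ovulation. X-linked genes are known to be largely silent in the mitotic and early meiotic germline of hermaphrodites and to be expressed during oogenesis.

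The S4 libraries held 2095436 to 5104679 reads on genes (median 2959554) and the S3 libraries 1723404 to 26839552 (median 3125562), with the batch B libraries the deepest of each stage. Oocyte genes were high in both segments: oma-2, a zinc finger protein of oocyte maturation, had a median of 1883 CPM in S4 and 1408 CPM in S3, and rme-2, the yolk receptor, 3317 CPM in S4 and 2746 CPM in S3. CPM are read counts scaled to a common library size (counts per 1e+06 reads) by TMM factors. The factor was 0.226 in the S4 library of worm J, against 0.484 to 1.26 in the other 27, so that the CPM of that library are raised by the scaling. The summed level of the intestine markers (23 genes) was 8.75 to 425 CPM in S4 and 4.80 to 13340 CPM in S3, the highest in the S3 library of worm 32, with elt-2 and ges-1 at a median of 0. That of the sheath cell markers (10 genes) was 810.0 to 23593 CPM in S4 and 835 to 23748 CPM in S3. The 31 msp genes, for major sperm proteins, summed to 0 to 2362 CPM in S4, the highest in worm J, and 0 to 47.7 CPM in S3. The S3 libraries of worms 2 and 33 had low shares of reads on coding sequence (50.6% and 55.2%), against 69.6% or more in the 11 S4 libraries and 75.9% or more in the other S3 libraries.

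Of 7071 genes tested, 261 (3.69%) were higher and 280 (3.96%) lower in S4 than in S3, 541 in all (7.65%, edgeR quasi-likelihood test with batch and detection rate as covariates, Benjamini-Hochberg adjusted p under 0.05 and fold change above 1.5). Of the genes higher in S4 150 were X-linked, and 71 of the genes lower in S4 encode cytoplasmic ribosomal proteins. The counts were 406 and 394 without the S4 library of worm J and 426 and 381 without the S3 library of worm 33. With median-of-ratios factors in place of TMM the calls were 280 higher (3.96%) and 164 lower (2.32%). Within batch A alone 371 genes were higher (5.16%) and 364 lower (5.06%), and within batch B, with 2 libraries per stage, 3 were higher (0.0463%) and 0 lower (0%) by edgeR, with 356 genes at an unadjusted p under 0.05. The difference between S4 and S3 itself differed between batches at 1279 genes (18.1%, edgeR batch by stage term, adjusted p under 0.05), among them 111 of the 541 called genes. Spread was estimated over both batches together for this term. Its p thus does not measure the spread between the 2 batch B libraries of a stage alone. A fit restricted to the 4 worms with both segments, with worm as a block, called 0 genes by edgeR (345 at an unadjusted p under 0.05), or 0 higher and 31 lower (0.437%) without the detection rate covariate. Limma voom with worm as a random block over the 28 libraries called 651 higher (9.21%) and 384 lower (5.43%).

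X-linked genes made up 150 of the 261 genes higher in S4 (57.5%), against 760 of the 7071 genes tested (10.75%). This share was 58 of 164 (35.4%) with all 8 stages in 1 fit, 252 of 688 (36.6%) without the low-count filter and 519 of 1562 (33.2%) from TPM, so that under these settings the larger part of the increases was autosomal. It was 97 of 196 (49.5%) without the S4 library of worm I. Of the 760 X-linked genes tested 150 (19.7%) were higher in S4 and 4 (0.526%) lower, beside 1.76% higher and 4.37% lower of the 6309 autosomal genes. Their median log2 fold change was 0.76, against -0.07 for the autosomes, and 661 of the 760 (87%) had a value above 0, against 42.95% of autosomal genes. The autosomes were alike, with medians from -0.11 on chromosome III to -0.03 on chromosome V.

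The X-linked median stood above that of the autosomes in both batches (0.73 against -0.06 in batch A, 0.98 against -0.05 in batch B) and in the fit of 4 worms with worm as a block (0.55 against 0.01), although no X-linked gene was called in the last fit or in batch B. The number of X-linked genes higher in S4 was 97 without the S4 library of worm I and 253 without the S3 library of worm 33, and 340 with worm as a random block. It was 67 without the detection rate covariate and 58 over all mapped libraries. The increase was spread along the chromosome. Up to position 5906242 of WBcel235, 47 of 265 genes tested were higher, from there to 11812484 53 of 246, and beyond it 50 of 249, with median log2 fold changes of 0.75, 0.81 and 0.75.

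**Figure D1:**
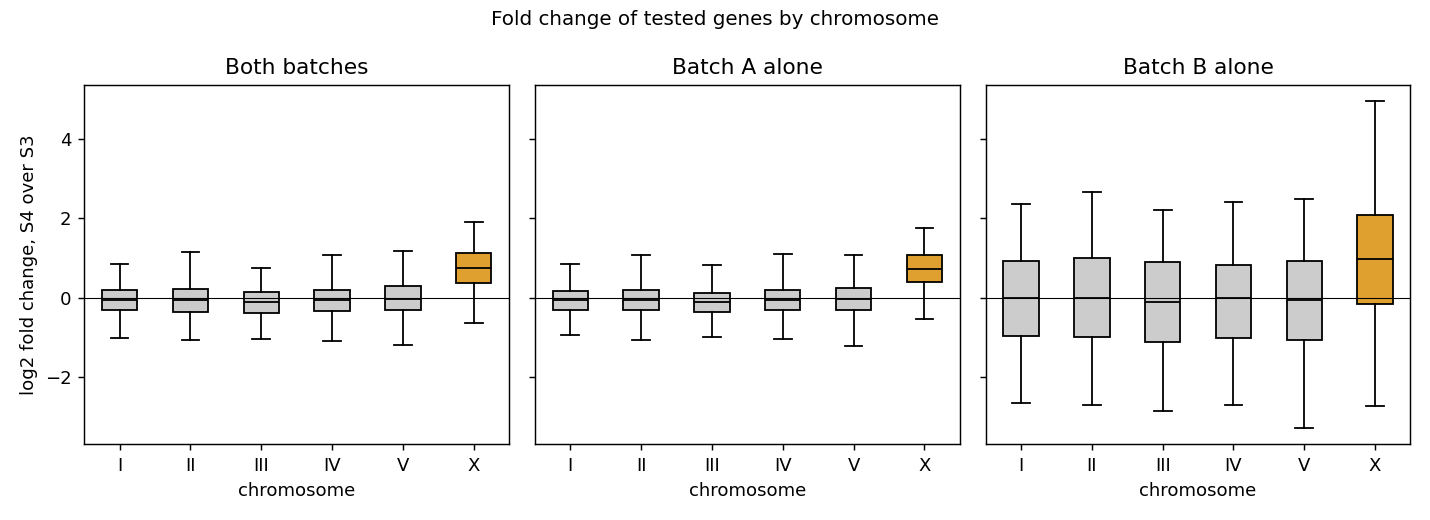
Log2 fold change of S4 over S3 for the genes tested on each chromosome, over both batches, in batch A alone and in batch B alone. Boxes show the quartiles with the median as a line and whiskers the 5th and 95th percentiles. The X chromosome (orange) has a median of 0.76 over both batches, 0.73 in batch A and 0.98 in batch B, above the medians of chromosomes I to V in each panel.

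As a share of all reads on genes, X-linked genes took 4.72%, 5.98% and 7.83% (lowest, median and highest) in the 9 S4 libraries of batch A, against 2.40%, 4.27% and 9.72% in the 15 S3 libraries. The highest value was that of the S3 library of worm 33, and the groups overlapped. In batch B the share was 2.44% (worm I) and 0.555% (worm J) in S4, against 1.06% (worm B) and 0.509% (worm E) in S3. The S4 library of worm I was thus above both S3 libraries, and that of worm J lay between them. Among the 4 worms with both segments the S4 segment had the higher share in worms 2 (6.99% against 5.87%), 29 (6.27% against 4.27%) and 32 (6.51% against 5.11%), and the lower one in worm 28 (5.66% against 6.17%). Along the gonad the batch A medians were 2.15% in S1, 1.92% in S2, 4.27% in S3, 5.98% in S4, 5.62% in -3 oocytes, 6.61% in -2 oocytes, 12.1% in -1 oocytes and 5.24% in zygotes (P0).

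**Figure D2:**
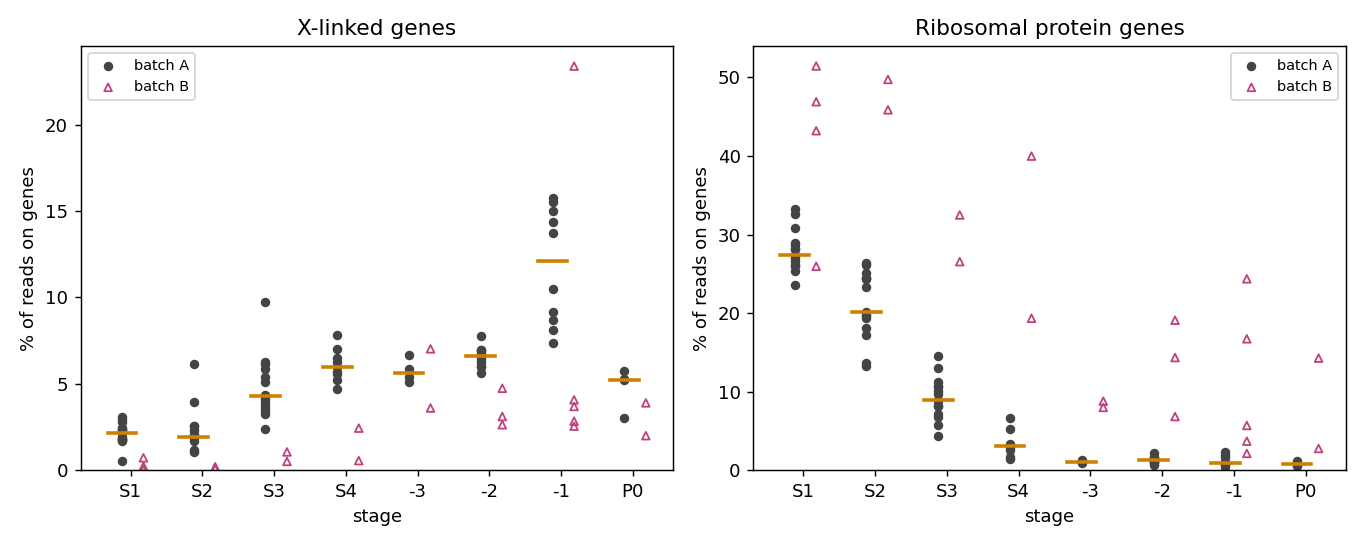
Share of reads on genes taken by X-linked genes (left) and by ribosomal protein genes (right) in each used library of the series, by stage from S1 to P0, with batch A as filled circles, batch B as open triangles and the batch A median as a bar. The X-linked share has batch A medians of 1.92% in S2, 4.27% in S3 and 5.98% in S4, and the ribosomal share medians of 20.1%, 8.94% and 3.10% at the same stages. At these stages batch B lies apart from batch A in both panels.

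The genes with the largest increases and the smallest adjusted p in S4 lay on X and on autosomes. tag-276, on chromosome II (12248125 to 12249142, minus strand, WBcel235), had 1.85, 114 and 233 CPM (lowest, median and highest) in S4, against 0, 10.2 and 64.5 CPM in S3. Of the 11 S4 libraries 8 were above every S3 library, and the 2 lowest S4 libraries were those of batch B, where both S3 libraries were at 0. The log2 fold change was 3.52 (SE 0.56, edgeR adjusted p = 0.000742), the largest increase among called genes whose average level reached 5 on the log2 CPM scale.

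nhr-71, a nuclear hormone receptor gene on X (13747315 to 13751797, plus strand), had 3.70, 126 and 185 CPM in S4, against 12.0, 36.8 and 109 CPM in S3. In batch A its S4 range began at 102 CPM and its S3 range ended at 109 CPM, so that within it the groups overlapped only by the S4 library of worm 34 and the S3 library of worm 28, while the S4 library of worm J was below every S3 library. The log2 fold change was 1.62 (SE 0.31, edgeR adjusted p = 0.00403).

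vha-15, a subunit of the proton pump V-ATPase encoded on X (2237911 to 2240255, plus strand), had 32.4, 117 and 227 CPM in S4, against 15.2, 50.2 and 126 CPM in S3. It was higher in S4 in both batches, with log2 fold changes of 1.24 over both (SE 0.24, edgeR adjusted p = 0.00403), 0.998 for batch A and 2.71 for batch B, and in 4 of 4 worms with both segments. A second X-linked V-ATPase gene, vha-12, rose by 1.09 (SE 0.28, edgeR adjusted p = 0.0177). These were the 2 V-ATPase genes called, of 17 tested, against 3.69% of all genes and 19.7% of X-linked genes higher, and 3 of the 17 are X-linked.

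hst-2, a heparan sulfate sulfotransferase gene on X (11204103 to 11207155, minus strand), had 0.925, 112.1 and 276.5 CPM in S4, against 3.93, 61.7 and 144 CPM in S3. Of the S4 libraries 4 were above every S3 library, the S4 library of worm J was the lowest of all, and the log2 fold change was 1.41 (SE 0.24, edgeR adjusted p = 0.00163). sdn-1, the syndecan core protein that carries such chains, is also X-linked and had medians of 73.9 CPM in S4 and 38.9 CPM in S3 (log2 fold change 1.18, SE 0.26, edgeR adjusted p = 0.0086). It was the only gene called among 8 tested genes of the gonad basement membrane list, 3 of them X-linked. This stands against 3.69% of all genes and 19.7% of X-linked genes higher.

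Both Ras pathway genes that changed are X-linked. ksr-1, the scaffold that brings Raf, MEK and MAP kinase together, had 5.55, 19.9 and 31.3 CPM in S4, against 0, 4.66 and 32.1 CPM in S3, and all 11 S4 libraries lay above the S3 median (log2 fold change 2.15, SE 0.58, edgeR adjusted p = 0.0199). Its change differed between batches, 1.65 in batch A against 6.21 in batch B (edgeR batch by stage adjusted p = 0.0304). In batch B the S3 libraries were at 0 and 0.54 CPM. gap-2, a GTPase-activating protein for Ras, had 8.32, 83.5 and 118.6 CPM in S4, against 5.74, 31.8 and 97.9 CPM in S3 (1.29, SE 0.24, edgeR adjusted p = 0.00341). Their 15 tested partners in the RAS-MAPK list did not pass, against 3.69% of all genes higher, and the median over the list was 0.14, against -0.02 over all genes tested.

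Other X-linked genes among the largest increases were abl-1 (2.2, SE 0.47), the homolog of the Abl tyrosine kinase, cyn-8 (2.02, SE 0.40), a cyclophilin, tmem-184 (1.77, SE 0.44), a membrane protein, inx-2 (1.75, SE 0.37), a gap junction innexin, and mct-6 (1.65, SE 0.46), of the monocarboxylate transporter family, with edgeR adjusted p between 0.00522 and 0.0267. inx-2 had 17.6, 74.4 and 199 CPM in S4, against 2.39, 29.2 and 71.5 CPM in S3, with 8 S4 libraries above every S3 library. The changes of inx-2 and mct-6 differed between batches (edgeR batch by stage adjusted p = 0.0175 and 0.00351). In that order they were 1.36 and 1.15 in batch A, against 4.52 and 5.51 in batch B. The mct-6 level rested in part on the S4 library of worm J, at 5141 CPM, against 57.3 to 389 CPM in the other S4 libraries and 25 to 159 CPM in S3, and its call was lost without the S4 library of worm 29 (adjusted p = 0.0676). abl-1 overlaps another coding gene on the opposite strand, as do ksr-1 and gap-2. Among genes named below, so do erd-2.1, sft-4, rla-1, spp-1, him-14 (opposite nos-2), cdc-25.3, ced-6 and ina-1. The library kits are not stated to mark strand, and reads of such neighbors cannot be told apart.

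The autosomal genes of this rule beside tag-276 were bath-39 on chromosome V and C49C3.8 on chromosome IV. bath-39, of a family with MATH and BTB domains, had medians of 34.2 CPM in S4 and 25.8 CPM in S3 (log2 fold change 1.98, SE 0.55, edgeR adjusted p = 0.0237). Its change differed between batches, 1.41 for batch A against 8.30 for batch B (batch by stage adjusted p = 0.0025), where the S3 libraries had 0.1 and 0 CPM, and it shares its strand with the overlapping F25H9.2. C49C3.8 had medians of 50.5 CPM in S4 and 29.5 CPM in S3 (1.75, SE 0.37, edgeR adjusted p = 0.00651).

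The next X-linked genes were picked from the 150 after their values were seen and say nothing of a pathway. Apart from hsp-3 and the rgs genes, they were in no list of their kind. erd-2.1, a receptor that returns proteins to the endoplasmic reticulum, had medians of 301 CPM in S4 and 111 CPM in S3 (1.40, SE 0.37), and uggt-1, a glucosyltransferase of glycoprotein folding, 91.4 CPM in S4 and 57.2 CPM in S3 (1.26, SE 0.31), with edgeR adjusted p of 0.0184 and 0.0123. The uggt-1 change was 0.957 in batch A against 3.24 in batch B (edgeR batch by stage adjusted p = 0.0371). sft-4, a cargo receptor for export from the endoplasmic reticulum, had a log2 fold change of 1.34 (edgeR adjusted p = 0.0345) that was not called without the S4 library of worm 28, the S4 library of worm 32 or the S3 library of worm 14 (up to 0.0557). hsp-3, an endoplasmic reticulum chaperone of the Hsp70 family, had 141, 432 and 703 CPM in S4, against 104.2, 269 and 458 CPM in S3 (0.84, SE 0.21, edgeR adjusted p = 0.013). In the list of chaperones induced by stress it was the 1 gene higher of 8 tested, with 1 lower and a median of -0.17. Of all genes 3.69% were higher and 3.96% lower. rgs-7 (1.5) and rgs-9 (1.34), regulators of G protein signaling, belonged to the 3 genes higher in S4 of 6 tested in their family, all 3 X-linked, as are 4 of the 6, against 3.69% of all genes and 19.7% of X-linked genes.

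**Figure D3:**
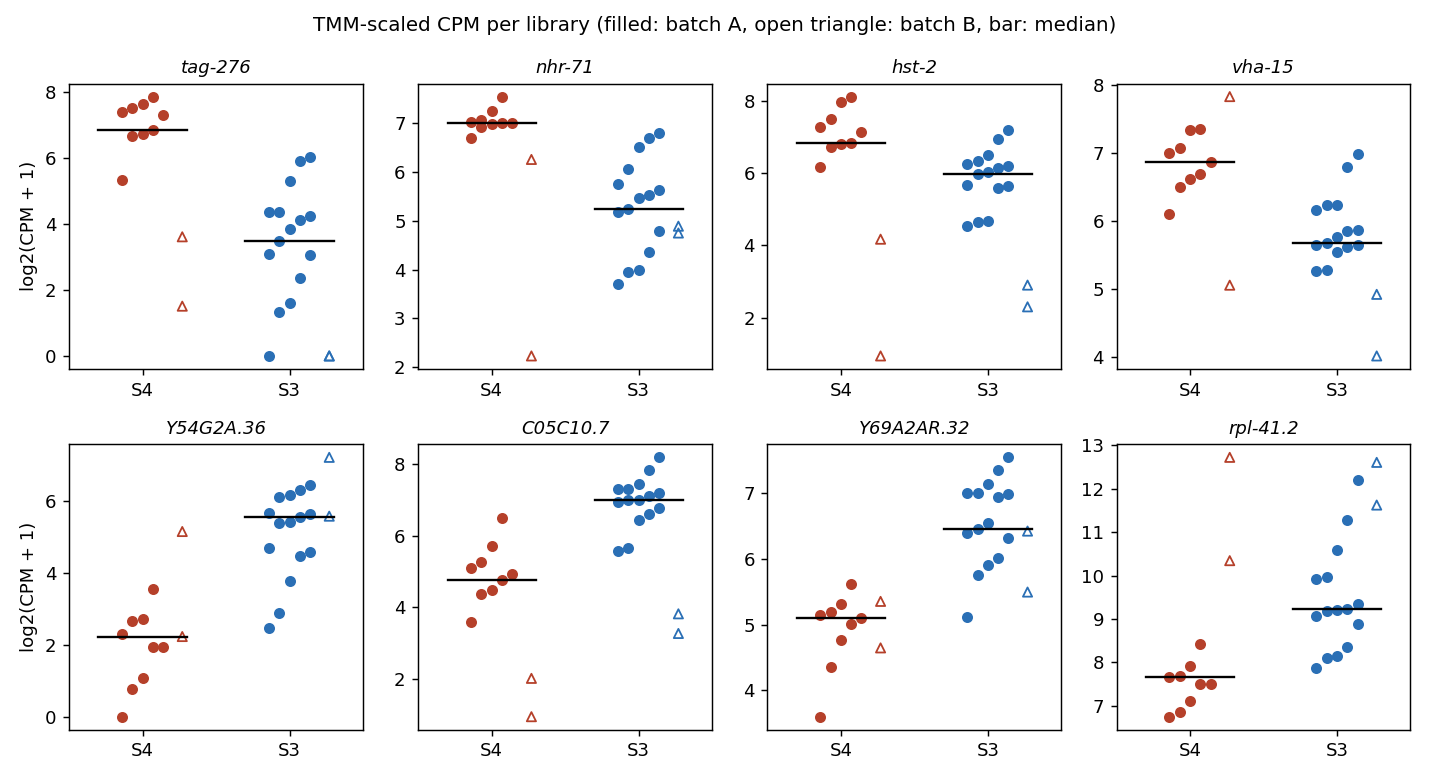
TMM-scaled CPM as log2(CPM + 1) of 8 genes in each S4 library (left, red) and S3 library (right, blue), with batch A filled, batch B as open triangles and the median over all libraries of a stage as a bar. The upper genes were higher and the lower genes were lower in S4. Within each stage the batch B libraries lie below those of batch A for hst-2 and C05C10.7. For tag-276 they also do, except that the batch A S3 library of worm 2 is at 0 as well. For rpl-41.2 they lie above, except that the batch A S3 library of worm 33 (4718 CPM) exceeds that of worm B (3160 CPM).

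The genes called higher in S4 were nearly absent from the distal gonad. In batch A the S1 median was under 1 CPM for 243 of the 261 genes, including 141 of the 150 X-linked genes, against 1721 of the 7071 genes tested. Over the 150 X-linked genes the median level was 0 CPM in S1 and S2, 18 CPM in S3, 42.8 CPM in S4, 41.1 CPM in -2 oocytes, 42.8 CPM in -1 oocytes and 36.8 CPM in P0 zygotes. In P0, fertilized eggs that have left the sheath, 133 of the 150 (88.7%) had at least 50% of their S4 level and 3 (2%) were below 25% of it, against 81.6% and 10.1% of all genes tested. For tag-276 the batch A medians were 0 CPM in S1 and S2, 11.5 CPM in S3, 151 CPM in S4, 164 CPM in -3 oocytes, 171 CPM in -2 oocytes, 112.5 CPM in -1 oocytes and 43.7 CPM in P0.

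The cytoplasmic ribosomal protein genes, which encode the proteins of both ribosomal subunits, were a large group among the decreases. Of 81 such genes by name 80 were tested, 71 were lower in S4 and 0 higher, against 3.96% of all genes lower, and the median log2 fold change was -1.35, with a range from -1.84 (rpl-43) to -0.13. With median-of-ratios factors 36 of the 80 were lower, with a median of -1.23. They made up 25.4% of the genes lower in S4. The 9 that did not pass were rla-0, rpl-11.2, rpl-12, rpl-24.2, rpl-25.1, rpl-29, rpl-37, rps-20 and rpl-41.1. Reads of the paired copies rpl-11.1 and rpl-11.2, rpl-24.1 and rpl-24.2, rpl-25.1 and rpl-25.2, and rpl-41.1 and rpl-41.2 may be divided between them in counting.

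This decrease was found in batch A and not in the fit within batch B, where the 2 S4 libraries went opposite ways. The share of reads on these genes was 19.3% in worm I and 40.0% in worm J, against 26.5% and 32.5% in S3. In batch A alone the median was -1.68, all 80 values were below 0 and 76 genes were called lower, while in batch B the median was 0.79, 71 of the 80 values were above 0 and 0 were called, by edgeR. The batch by stage term passed for 54 of the 80 genes, against 18.1% of all genes. In the fit of 4 worms with worm as a block, all in batch A, the median was -1.52 and 0 genes passed, or 26 without the detection rate covariate. With worm as a random block 74 were lower. The number lower in S4 stayed between 56 and 77 on leaving out each library.

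rps-25 had 92.6, 261 and 745 CPM in the S4 libraries of batch A, against 456, 1064 and 2332 CPM in S3, and in batch B 5103 CPM (worm I) and 48102 CPM (worm J) in S4, against 15021 CPM (worm B) and 21771 CPM (worm E) in S3. rla-1, an acidic stalk protein, had 146, 179 and 550 CPM in the batch A libraries of S4, against 386, 954 and 2821 CPM in S3, and in batch B 4765 and 34209 CPM in S4, against 3796 and 6822 CPM in S3 (batch by stage adjusted p = 0.00541). Thus batch B levels were many times those of batch A in both stages, and within batch B the S4 library of worm J was above both S3 libraries. For rps-25 the S4 library of worm I was below both. rpl-43 (-1.84, SE 0.35, edgeR adjusted p = 0.00341) and rpl-41.2 (-1.82, SE 0.31, adjusted p = 0.00163) had the largest decreases among the ribosomal protein genes, and their batch B values were -0.75 and -0.33. Both genes for ubiquitin fused to a ribosomal protein, chosen after their values were seen, fell as well, ubl-1 by 1.41 (SE 0.33) and ubq-2 by 1.49 (SE 0.38), with edgeR adjusted p of 0.011 and 0.0152, and both were above 0 in batch B.

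As a share of reads on genes, ribosomal protein genes took 1.43%, 3.10% and 6.60% (lowest, median and highest) in the S4 libraries of batch A, against 4.34%, 8.94% and 14.6% in S3. In batch B they took 19.3% and 40.0% in S4, against 26.5% and 32.5% in S3. In 4 of 4 worms with both segments the S4 share was the lower, at 5.19% against 8.75% in worm 2, 1.69% against 4.34% in worm 28, 3.10% against 8.94% in worm 29 and 3.38% against 9.68% in worm 32. The batch A medians along the gonad were 27.4% in S1, 20.1% in S2, 8.94% in S3, 3.10% in S4, 1.04% in -3 oocytes, 1.29% in -2 oocytes, 0.921% in -1 oocytes and 0.782% in P0. Ribosomal protein transcripts are short, with a median exonic length of 522 bases. Autosomal genes of other kinds with up to 500 exonic bases (n = 267) had a median log2 fold change of -0.27, those of 1000 to 2000 bases (n = 2594) one of -0.04. The part of length in the decrease was not tested.

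**Figure D4:**
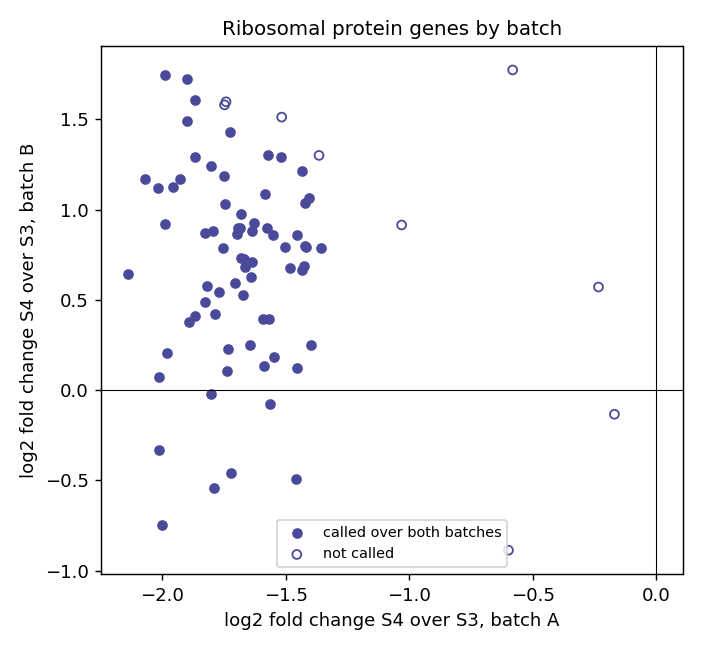
Log2 fold change of S4 over S3 of the 80 ribosomal protein genes tested, in batch A (horizontal) and batch B (vertical), with genes called over both batches filled and the others open. All 80 lie left of 0 in batch A, and 71 lie above 0 in batch B.

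The other genes with the largest decreases were mostly genes of unknown role. Y54G2A.36, on chromosome IV (2897694 to 2901651, plus strand), had 0, 3.70 and 34.7 CPM in S4, against 4.53, 45.8 and 148 CPM in S3. Of the S4 libraries 7 were below every S3 library, and the log2 fold change was -3.28 (SE 0.53, edgeR adjusted p = 0.000742), -3.47 in batch A and -2.12 in batch B. An annotated pseudogene overlaps it on the opposite strand.

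C05C10.7, on chromosome II (9938108 to 9938971, minus strand), had 0.925, 26 and 89.1 CPM in S4, against 8.65, 126 and 291 CPM in S3. All 11 S4 libraries lay below the S3 median, and the log2 fold change was -1.99 (SE 0.30, edgeR adjusted p = 0.000564), the smallest p among genes at that average level. Its batch A medians fell along the whole gonad, with 202 CPM in S1, 158 CPM in S2, 116 CPM in S3, 27.1 CPM in S4, 14.1 CPM in -3 oocytes and 7.26 CPM in P0.

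Y69A2AR.32, on chromosome IV (2610436 to 2612441, plus strand), had 11.14, 33.5 and 48.1 CPM in S4, against 33.8, 87 and 185 CPM in S3, with 6 S4 libraries below every S3 library (-1.60, SE 0.25, edgeR adjusted p = 0.000742). Y69A2AR.28 lies opposite to it. tofu-7, on chromosome III (7083684 to 7085018, minus strand), a gene needed for piRNA production, had 10.2, 28 and 44.7 CPM in S4, against 13.2, 109 and 227 CPM in S3 (-1.98, SE 0.35, edgeR adjusted p = 0.00196). Fitted by batch, its log2 fold changes were -1.93 (batch A) and -2.13 (batch B).

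The remaining decreases of the rule were 3 pseudogenes, a noncoding RNA and an intestine protease. The pseudogene WBGene00018862, on chromosome I (5368478 to 5372643, plus strand), had the largest decrease, with 0, 3.04 and 105 CPM in S4, against 2.47, 76.5 and 308 CPM in S3 (-3.88, SE 0.70, edgeR adjusted p = 0.00258). Its batch A medians were 57.8 CPM in S1, 59.9 CPM in S2, 64.5 CPM in S3, 1.97 CPM in S4 and 0.614 CPM in -2 oocytes. The pseudogenes WBGene00002221 and WBGene00020434, both on chromosome IV, had log2 fold changes of -2.77 (SE 0.45) and -2.19 (SE 0.60), with edgeR adjusted p of 0.000742 and 0.0245. C05D9.12, a noncoding RNA gene of X with 129 exonic bases, had medians of 12.0 CPM in S4 and 123 CPM in S3 (-2.30, SE 0.47, edgeR adjusted p = 0.00595).

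asp-1, an intestine aspartyl protease, had 0, 1.39 and 56.6 CPM in S4, against 0, 8.74 and 345 CPM in S3 (-3.52, SE 1.11, edgeR adjusted p = 0.0497). The intestine antimicrobial gene spp-1 had 0.312, 1.77 and 13.7 CPM in S4, against 1.74, 4.74 and 209 CPM in S3 (-2.47, SE 0.68, edgeR adjusted p = 0.0231). The 8 intestine markers tested had a median of -3.13, with 2 called lower by edgeR and 8 by DESeq2. Of all 7071 genes tested, 280 (3.96%) were lower by edgeR and 374 by DESeq2. The S3 library of worm 32 held the highest intestine level. Without it asp-1 had -3.23 (adjusted p = 0.0434) and spp-1 -1.86 (adjusted p = 0.0299), and without the S3 libraries of worms 2, 32 and 33 they had -3.06 (adjusted p = 0.0536) and -1.42 (adjusted p = 0.1), by edgeR. The part of intestine RNA in other changes was not tested. The call of asp-1 was also lost on leaving out any 1 of 16 of the 28 libraries, with an adjusted p of up to 0.0922, and with median-of-ratios factors (0.0551), and over all mapped libraries its value was 0.76.

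Genes of meiotic chromosomes are read against 3.69% of all genes higher and 3.96% lower by edgeR, and 538 and 374 of 7071 by DESeq2. Of 17 tested synaptonemal complex and axis genes 0 passed in either direction by edgeR (3 at an unadjusted p under 0.05, and 1 higher and 2 lower by DESeq2), with a median of 0.05 and a range from -1.24 (coh-4, adjusted p = 0.0811) to 0.56 (wapl-1, adjusted p = 0.0875), and of 13 tested genes of homolog pairing and the nuclear envelope 0 passed by edgeR or DESeq2, 0 of them at an unadjusted p under 0.05 (median -0.11). Of 28 tested genes of breaks and crossovers 2 were lower in S4 (median -0.25). rmh-1, which regulates crossovers, had medians of 28 CPM in S4 and 67.6 CPM in S3 (-1.38, SE 0.33, edgeR adjusted p = 0.0121), with all 11 S4 libraries below the S3 median. him-14, the MutS homolog that acts with msh-5 at crossover sites, had medians of 19 CPM in S4 and 38 CPM in S3 (-1.07, SE 0.31, adjusted p = 0.0299). Its change was -0.76 in batch A against -3.17 in batch B (edgeR batch by stage adjusted p = 0.0235). Its call was lost with worm as a random block (limma voom adjusted p = 0.0621) and on leaving out the S4 library of worm 1, 2, 20, 26, 32 or I (edgeR adjusted p up to 0.0595).

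Of 16 tested genes of the acentrosomal spindle, which oocytes assemble for the meiotic divisions, 3 were lower in S4, against 3.96% of all genes (median -0.28). klp-7, a microtubule depolymerase, had 71.7, 89.5 and 869 CPM in S4, against 83.3, 187 and 484 CPM in S3 (-0.88, SE 0.25, edgeR adjusted p = 0.0272), the highest level being that of worm J. Its call was lost with median-of-ratios factors (edgeR adjusted p = 0.0903). zyg-9, a microtubule polymerase, fell by 0.68 (SE 0.20, adjusted p = 0.0345) and klp-15, a kinesin directed to the minus end whose near copy klp-16 may share its reads, by 0.79 (SE 0.22, adjusted p = 0.0236). The call of zyg-9 was lost on leaving out any 1 of 13 libraries (adjusted p up to 0.0667) and that of klp-15 without the S4 library of worm 20 (0.0509). Of 17 tested cell cycle genes cdc-25.3, a phosphatase of the CDC25 family, was higher, with 16.6, 128 and 179 CPM in S4, against 14.8, 68.7 and 113 CPM in S3 and 8 S4 libraries above every S3 library (0.86, SE 0.21, edgeR adjusted p = 0.0117). The list had a median of 0.28, and 1 gene higher of 17 stands against 3.69% of all genes.

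**Figure D5:**
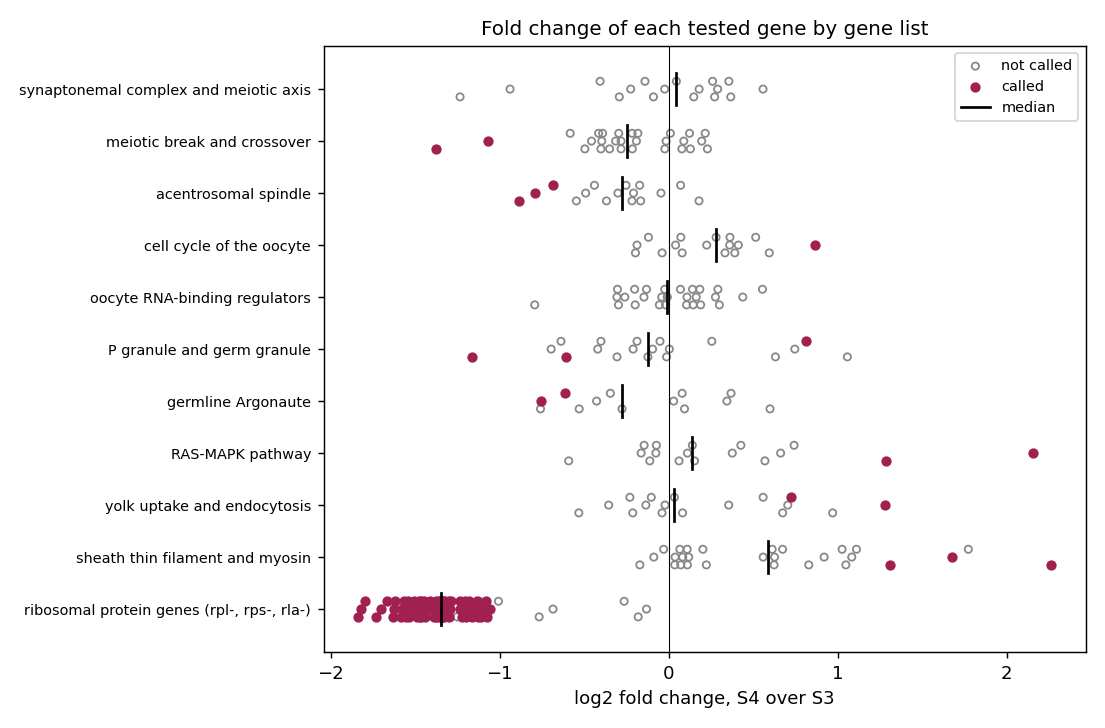
Log2 fold change of S4 over S3 (horizontal) of each tested gene in 11 gene lists, called genes filled, other genes open and the median of a list as a vertical bar. The ribosomal protein genes lie below 0, with a median of -1.35, while the medians of the other lists run from -0.28 (acentrosomal spindle, germline Argonaute) to 0.59 (sheath thin filament and myosin).

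Among genes of RNA regulation, 0 of 27 tested oocyte RNA-binding regulators passed in either direction by edgeR or DESeq2, with 1 at an unadjusted p under 0.05 (median -0.01). oma-1 had medians of 810.3 CPM in S4 and 736 CPM in S3 (0.11, SE 0.21) and lin-41, which keeps oocytes from leaving meiosis early, 323 CPM in S4 and 329.7 CPM in S3 (-0.13, SE 0.22). Of 19 tested germ granule genes 1 was higher and 2 were lower, against 3.69% and 3.96% of all genes. meg-4, an X-linked gene for a disordered protein of embryonic P granules, had medians of 162 CPM in S4 and 84.4 CPM in S3 (0.81, SE 0.23, edgeR adjusted p = 0.0264, or 0.0731 without the S4 library of worm I). The P granule gene pgl-3 fell by 0.61 (SE 0.18, adjusted p = 0.0359) and znfx-1, a helicase of Z granules, by 1.16 (SE 0.35, adjusted p = 0.0381), and each call was lost on leaving out any 1 of 14 libraries (up to 0.0715 and 0.0741). With worm as a random block the change of pgl-3 was under the fold limit (-0.54).

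Of 13 tested Argonaute genes 2 were lower, against 3.96% of all genes. rde-1, the Argonaute of RNAi against foreign double-stranded RNA, had 78.6, 93.5 and 143 CPM in S4, against 107, 161 and 204 CPM in S3, with 8 S4 libraries below every S3 library (-0.62, SE 0.15, edgeR adjusted p = 0.0114). Its adjusted p stayed at or under 0.0231 on leaving out each library, and its change was under the fold limit without the S3 library of worm 32 or 33 or the S4 library of worm 2. ppw-1 fell by 0.76 (SE 0.23, adjusted p = 0.041), a call lost on leaving out any 1 of 19 libraries (up to 0.0744). With median-of-ratios factors 0 of the 13 Argonaute genes and 0 of the 19 germ granule genes were lower, by edgeR, while 4 and 10 of them had an unadjusted p under 0.05 in the TMM fit.

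Cell death genes were examined because germ cells die at the loop. Of 13 tested genes of the apoptosis list 1 was called, a share near the 7.65% of all genes. egl-1, which starts the core apoptosis pathway, had 0, 0.625 and 8.58 CPM in S4, against 0, 5.80 and 23.95 CPM in S3, with 10 of 11 S4 libraries below the S3 median (-2.00, SE 0.68, edgeR adjusted p = 0.0644). It was called lower with worm as a random block (limma voom adjusted p = 0.011) and without the S3 library of worm 33 or the S4 library of worm 1 or 2. The caspase gene ced-3 had medians of 88.6 CPM in S4 and 81.5 CPM in S3 (0.01, SE 0.19), ced-4 74.2 and 68.2 CPM (0.31, SE 0.25) and ced-9 27.1 and 21 CPM (0.22, SE 0.30), in the same order of stages. dre-1, an F-box gene of a ubiquitin ligase that promotes death of certain cells, had 5.55, 24.6 and 58.7 CPM in S4, against 0, 10.02 and 35.9 CPM in S3 (1.82, SE 0.45, edgeR adjusted p = 0.0137), and was the 1 gene called. Of 11 tested engulfment genes 2 were higher, against 3.69% of all genes, the adaptor gene ced-6 (0.72, SE 0.21, adjusted p = 0.0325) and the integrin gene ina-1 (1.01, SE 0.30, adjusted p = 0.0368). The call of ced-6 was lost without the S4 library of worm 31 or J or the S3 library of worm E (up to 0.0552), and that of ina-1 without the S3 library of worm 11, 14, 23 or E or the S4 library of worm 29 or I (up to 0.0782). The change of ina-1 differed between batches (edgeR batch by stage adjusted p = 0.0489) and was 0.77 in batch A.

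Of 17 tested genes of yolk uptake and endocytosis, 6 of them X-linked, 2 were higher by edgeR, against 3.69% of all genes, with 4 by DESeq2 and 6 with worm as a random block. Over all 7071 genes DESeq2 called 538 higher and the fit with worm as a random block 651 (9.21%). The 2 called by edgeR were ced-6 and the X-linked rme-6, an exchange factor for the endosomal GTPase RAB-5. rme-6 had 15.7, 57.8 and 149 CPM in S4, against 9.26, 24.1 and 67.6 CPM in S3 (1.28, SE 0.32, edgeR adjusted p = 0.0137). rme-2 did not pass (0.03, SE 0.23). Of the genes tested, 0 of 15 eggshell, 0 of 29 replication, 0 of 40 RNA polymerase II, TFIID and Mediator, 0 of 34 respiratory chain and 0 of 16 fatty acid genes passed by edgeR, with medians from -0.07 to 0.10 and, in the same order, 1, 0, 5, 6 and 2 genes at an unadjusted p under 0.05. DESeq2 called 1 gene of the polymerase list and 2 of the respiratory chain higher and 1 fatty acid gene lower. With worm as a random block (limma voom) 4 respiratory chain genes and 1 of the RNA polymerase II list were higher. The batch medians of the respiratory chain genes were -0.23 in batch A and 0.96 in batch B. nst-1, a nucleolar GTPase, was the 1 gene lower among 19 tested nucleolar genes (-0.59, SE 0.18, adjusted p = 0.0436), a call lost on leaving out any 1 of 19 libraries (up to 0.0806), with median-of-ratios factors (0.0811) and, being under the fold limit (-0.50), with worm as a random block. hsp-60, the mitochondrial chaperonin, fell by 0.81 (SE 0.17, edgeR adjusted p = 0.00651), with medians of 112.5 CPM in S4 and 189.9 CPM in S3.

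Of 28 tested genes of sheath filaments and their attachments, 8 of them X-linked, 3 were higher and 0 lower by edgeR (median 0.59), against 3.69% higher and 3.96% lower of all genes. DESeq2 and the fit with worm as a random block each called 5 higher, where over all 7071 genes they called 538 and 651 (9.21%). mup-2, an X-linked troponin gene, had 5.61, 10.6 and 23.7 CPM in S4, against 0.282, 2.61 and 12.6 CPM in S3, and all 11 S4 libraries lay above the S3 median (1.68, SE 0.46, edgeR adjusted p = 0.0235). unc-54, a muscle myosin heavy chain (2.26, SE 0.72), and unc-97, an adaptor of muscle attachments (1.31, SE 0.42), had edgeR adjusted p of 0.0463 and 0.0492, calls that were lost on leaving out any 1 of 19 and of 21 libraries (up to 0.0941 and 0.13), and for unc-54 with worm as a random block (limma voom adjusted p = 0.0859). inx-8, an innexin of the sheath side of the junctions with oocytes whose reads may be shared with inx-9, had 53.6, 254 and 695 CPM in S4, against 16.04, 109 and 275 CPM in S3 (1.33, SE 0.36, edgeR adjusted p = 0.0218, or up to 0.0571 without the S4 library of worm 2 or 31). It was the 1 gene called among 7 tested sheath markers, whose median was 0.49.

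Along the gonad the called genes of the sheath lists differed among themselves. The batch A medians of inx-8 were 99.1 CPM in S3, 242 CPM in S4, 842 CPM in -2 oocytes, 1112 CPM in -1 oocytes and 0.193 CPM in P0, and those of mup-2 were 2.36, 9.25, 31.4, 35.3 and 0.643 CPM at the same stages. unc-54 had 11 CPM in S4 and 0.259 CPM in P0, while unc-97 had 24.4 CPM in S4 and 24.2 CPM in P0. Of the 261 genes higher in S4, 220 (84.3%) had a P0 median of at least 50% of their S4 median and 11 (4.21%) one below 25% of it, against 81.6% and 10.1% of all genes tested. The part of sheath RNA in the changes of other genes was not tested.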

How the data were processed

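Single gonad segments were made into RNA-seq libraries with a modified Tang or the Smart-seq2 protocol; which batch had which was not settled here. The authors trimmed reads with Trim Galore, aligned them to WBcel235 with HISAT2 and deposited HTSeq counts per gene on the WS291 annotation, without normalization. The deposited TPM came from Salmon, and the fractions and percent values of the deposited quality table from the authors' scripts. Tool versions are not given in the sources used here. The count table holds 46927 genes and 146 libraries, and symbols were known for 44113 genes. Batch A and batch B are named as in the quality table.

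Genes tracking the msp genes (644), mitochondrial genes (36) and rRNA genes (20) were left out. The 28 libraries were fitted with edgeR 4.0.16 in R 4.3.3 (filterByExpr at a minimum count of 10, TMM, robust QL F test). The covariates, after the study's design, were batch and detection rate, the share of genes with at least 1 read. edgeR stands in for Monocle2. Each SE was obtained from the log2 fold change (S4 over S3) and its F value. Alternatives included DESeq2 1.42.0, limma 3.58.1 and other settings. TPM were used only in an alternative, as log2(TPM + 1) or with a pseudocount of 0.1. The batch B fit and the fit without the S3 libraries of worms 2, 32 and 33 were chosen after seeing the data. In the fit within batch B no detection rate covariate was used.

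The worm named in the sample labels pairs segments of 1 animal. Residuals of same-worm libraries correlated at 0.076 to 0.257 (4 pairs, mean 0.172). The 135 pairs of different worms of 1 batch ran from -0.497 to 0.354 (mean -0.042), so the 4 pairs lay within their spread. Limma's consensus correlation was 0.242. Other libraries are from separate worms.

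On simulated counts (6903 genes) edgeR called 8 of 48 genes changed 1.5-fold, 27 of 49 changed 2-fold and 45 of 46 changed 4-fold, and made 3 false calls. A 1.5-fold change lies at the fold limit of a call, which by itself lowers the first count. Many 2-fold changes were missed as well, and the part of depth in this was not tested. For the batch by stage term 9 of 48 genes changed 4-fold were called.

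Named are members of the gene lists, the 10 called genes with the largest change and the 5 with the smallest adjusted p in each direction at an average log2 CPM of at least 5, and genes the study names for these stages. One gene of this rule is not reported here. Ribosomal protein and msp genes and chromosomes are described as groups. The libraries compared and the lists were chosen with earlier results of these data known. Stage levels along the gonad come from 1 TMM scaling of all used libraries. Figures and summaries used Python with numpy, pandas and matplotlib. No sequences are printed, as no sequence table was used here.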

Additional observations from a re-analysis of the deposited data

Results flagged for a closer look

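The change of S4 over S3 differed between batch A and batch B at 1279 of 7071 genes by edgeR's batch by stage term. Among the 80 ribosomal protein genes 54 did, with a median log2 fold change of -1.68 in batch A (9 S4 and 15 S3 libraries) and 0.79 in batch B (2 S4 and 2 S3 libraries). The S4 library of worm J, with 40.0% of its reads on ribosomal protein genes, was the highest of the 28 libraries. Without it the pooled median was -1.60 and 77 of the genes were lower in S4. The other batch B library of S4, of worm I, had 19.3%, below both S3 libraries of that batch (26.5% and 32.5%). Of the 760 X-linked genes 85 differed between batches, a lower count than that of the ribosomal protein genes as a share of its group. The X-linked median was above 0 in both batches. In batch B the X-linked share of reads was 2.44% (worm I) and 0.555% (worm J) in S4, against 1.06% and 0.509% in S3. Only worm I was above both S3 libraries. The 2 libraries per stage in batch B leave the batch difference resting on few worms.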

How the results depend on the processing

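The number of genes called depends on the processing. In the order higher and lower in S4, calls were 688 and 636 without the low-count filter, 538 and 374 with DESeq2, 113 and 231 without the detection rate covariate, 106 and 160 over all mapped libraries, 164 and 214 with all 8 stages in 1 fit, 1562 and 276 from Salmon TPM by limma with a pseudocount of 1, and 1327 and 245 with 0.1. They were 280 and 164 with median-of-ratios factors, 426 and 289 without the S3 libraries of worms 2, 32 and 33, and 3 and 0 in batch B alone. With the pairing by worm as a replicate block over 4 worms they were 0 and 0 with the detection rate and 0 and 31 without it, and 651 and 384 with worm as a random block. Leaving out each library gave 192 to 426 higher and 189 to 394 lower. The share of calls that were higher was 48.2% with the reported settings, 63.1% with median-of-ratios factors and 85.0% with TPM, where the median of all genes stood at 0.32. The causes of these shifts were not tested.

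Over 70 genes named in the text, 729 of 1038 values under other settings kept direction and call, 275 lost the call, 17 gained it and 17 reversed. The reversed values were asp-1 at 0.76 over all mapped libraries, and in batch B alone klp-7 0.34, rme-2 -0.057, oma-2 -0.81, ced-3 -1.19, rla-1 1.75, rpl-12 0.91, rps-25 0.38, rla-0 1.3, ubl-1 0.59 and ubq-2 1.17. With worm as a block ced-3 was -0.13 and -0.16 and oma-1 -0.00077. lin-41 was 0.36 from TPM and 0.0496 without the S3 libraries of worms 2, 32 and 33. On leaving out 1 library, ced-3 ran from -0.072 to 0.086, rme-2 from -0.035 to 0.149 and lin-41 from -0.22 to 0.025.

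Batch B has 2 libraries per stage, and its S4 library of worm J weighs on abundant genes. Sheath cells were part of each segment, intestine RNA was highest in the S3 library of worm 32, and 4 worms gave both segments, so most of the comparison is between animals.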

Other observations

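Pseudogenes, a group chosen after its values were seen, were often lower in S4. Of 135 annotated pseudogenes tested, 37 were lower in S4 and 1 was higher (edgeR adjusted p under 0.05 and fold above 1.5), against 3.96% of all genes lower. The 37 called lower had a median log2 fold change of -2.17 (range -3.88 to -1.01). Of these, 32 of the 36 tested within batch B were below 0 there, in libraries that were part of the pooled fit. Of the 135, 111 were tested within batch B, and 37 of those had a value above 0. The batch A levels of the pseudogenes called lower had a median of 15.3 CPM in S1, 14.1 CPM in S2, 12.1 CPM in S3, 2.35 CPM in S4 and 0.285 CPM in P0. Of the 37 called lower, 2 overlap an annotated coding gene, and reads shared with near-identical genes make such counts uncertain. The count was 24 without the S3 library of worm 17 and 49 without that of worm 33.

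The 172 genes lower in S4 that are neither ribosomal protein genes nor pseudogenes had median batch A levels of 57.4 CPM in S1, 52.9 CPM in S2, 38 CPM in S3, 19.9 CPM in S4, 15.9 CPM in -2 oocytes and 13.4 CPM in P0. Of 54 nuclear hormone receptor genes tested, 6 were higher in S4 and 0 lower by edgeR, against 3.69% of all genes higher, with a median of 0.76; 9 of the 54 are X-linked, and 2 of the 6 higher genes are. With worm as a random block 16 were higher, against 9.21% of all genes in that fit.

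Of 67 mitochondrial ribosomal protein genes tested, 2 were lower in S4 and 0 higher by edgeR, near the 3.96% of all genes lower (24 at an unadjusted p under 0.05), with a median of -0.40, against -1.35 for the cytoplasmic ones. In batch A alone 10 were lower.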
